A study of Homo sapiens with 12 samples.

Results

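A set of 32 genes of mitosis and of its entry from G2 was followed in 2 human breast cancer lines given everolimus. They were chosen by name, as genes known to act in mitosis or to drive its transcription. No measured value entered the rule, but the choice was made with earlier results of these data known. All 32 members had at least 1 probe with a single gene symbol, 48 probes in all, and all 32 were among the 11764 genes with a probe above a floor of 6.77 log2 units on at least 3 arrays, out of 20046 genes with such a probe. The study put total RNA on 12 Illumina bead arrays, 3 for each of 4 groups. These groups were MDA-MB-231 cells in 10 uM everolimus, MDA-MB-231 cells in DMSO, BT-549 cells in 10 uM everolimus and BT-549 cells in DMSO, all for 48 h. Both lines are labelled triple negative breast cancer, everolimus inhibits the growth kinase mTOR, and DMSO is its solvent. The labels do not say that replicates were separate cultures, so each p-value reflects the variation among these 12 samples and no more, and that variation may be technical.

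Cells commit to mitosis when the kinase CDK1, bound to cyclin B, is freed of its inhibitory phosphates by CDC25 phosphatases. Kinases of the Polo and Aurora families then drive spindle assembly, the checkpoint holds back the anaphase-promoting complex until chromosomes are attached, and midzone motors complete cytokinesis. The transcripts of most of these proteins are low in G1 and peak in G2 and mitosis. The MuvB core with MYBL2 and FOXM1 turns them on through promoter elements that include the CHR and the CCAAT box bound by NF-Y, and the DREAM complex holds them down in quiescent cells. In total RNA of a culture, fewer cells in G2 and mitosis cannot be told apart from less RNA of these genes per cell.

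Many of the members' promoter windows held the letters of these elements. The 150 bases from 120 before to 30 after the transcript start are shown for KIF23, the 1 member called under everolimus, for KIF20A, another midzone kinesin, for CDC20, CCNB2 and PLK1, whose differences depended on line or arrays, and for CCNB1, the classical mitotic cyclin. They come from RefSeq on GRCh38.p14, 5′ to 3′, all on the plus strand, at chr15:69414229-69414378, chr5:138178992-138179141, chr1:43358861-43359010, chr15:59105026-59105175, chr16:23678769-23678918 and chr5:69167030-69167179 in that order. Capitals mark the letters of the CHR, spelled TTTGAA, in reverse complement as TTCAAA, or in a palindromic form as TTCGAA, and those of the CCAAT box, spelled that way or in reverse complement as ATTGG.
KIF23: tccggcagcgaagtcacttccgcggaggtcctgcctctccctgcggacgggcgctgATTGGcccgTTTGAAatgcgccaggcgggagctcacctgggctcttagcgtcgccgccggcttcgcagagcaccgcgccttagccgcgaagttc
KIF20A: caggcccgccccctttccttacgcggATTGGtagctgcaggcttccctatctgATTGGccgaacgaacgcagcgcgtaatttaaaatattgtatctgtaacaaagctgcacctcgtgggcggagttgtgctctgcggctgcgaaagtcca
CDC20: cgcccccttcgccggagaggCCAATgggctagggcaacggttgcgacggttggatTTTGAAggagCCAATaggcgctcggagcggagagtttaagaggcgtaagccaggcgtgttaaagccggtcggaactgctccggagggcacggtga
CCNB2: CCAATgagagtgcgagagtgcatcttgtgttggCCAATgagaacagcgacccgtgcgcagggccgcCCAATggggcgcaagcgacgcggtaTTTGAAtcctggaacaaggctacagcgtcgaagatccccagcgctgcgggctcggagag
PLK1: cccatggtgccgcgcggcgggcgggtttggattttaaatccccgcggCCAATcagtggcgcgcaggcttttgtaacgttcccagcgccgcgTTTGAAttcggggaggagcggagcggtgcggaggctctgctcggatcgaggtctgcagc
CCNB1: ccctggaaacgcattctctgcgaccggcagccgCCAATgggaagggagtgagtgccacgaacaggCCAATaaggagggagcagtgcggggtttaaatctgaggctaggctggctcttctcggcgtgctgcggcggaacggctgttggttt

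In these stretches KIF23 and PLK1 each held 1 CHR match and 1 CCAAT match, CDC20 held 1 CHR match between 2 CCAAT matches, and CCNB2 held 1 CHR match after 3 CCAAT matches. KIF20A and CCNB1 held 2 CCAAT matches and none of the CHR letters searched. Over windows from 250 bases before to 50 after the start, which RefSeq gave for 26 of the 32 members, 19 members (73.1%) had a CHR match on either strand, against 15.8% of the 9426 tested genes with a window. A CCAAT match stood in the windows of 21 members (80.8%), against 44.0% of the tested genes, and both kinds stood together in those of 16 members (61.5%), against 6.69%. Overlapping matches were each counted, as in PTTG1, where CCAAT letters of both strands overlap, and in CDCA8 and MKI67, where CHR and CCAAT letters share a base. A gene with several windows counted once if any window held the letters. AURKA, TTK, UBE2C, BIRC5, TPX2 and FOXM1 had no window. Of the 26 with a window, CENPE and MYBL2 held neither. These matches describe letters and show no binding.

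**Figure D1:**
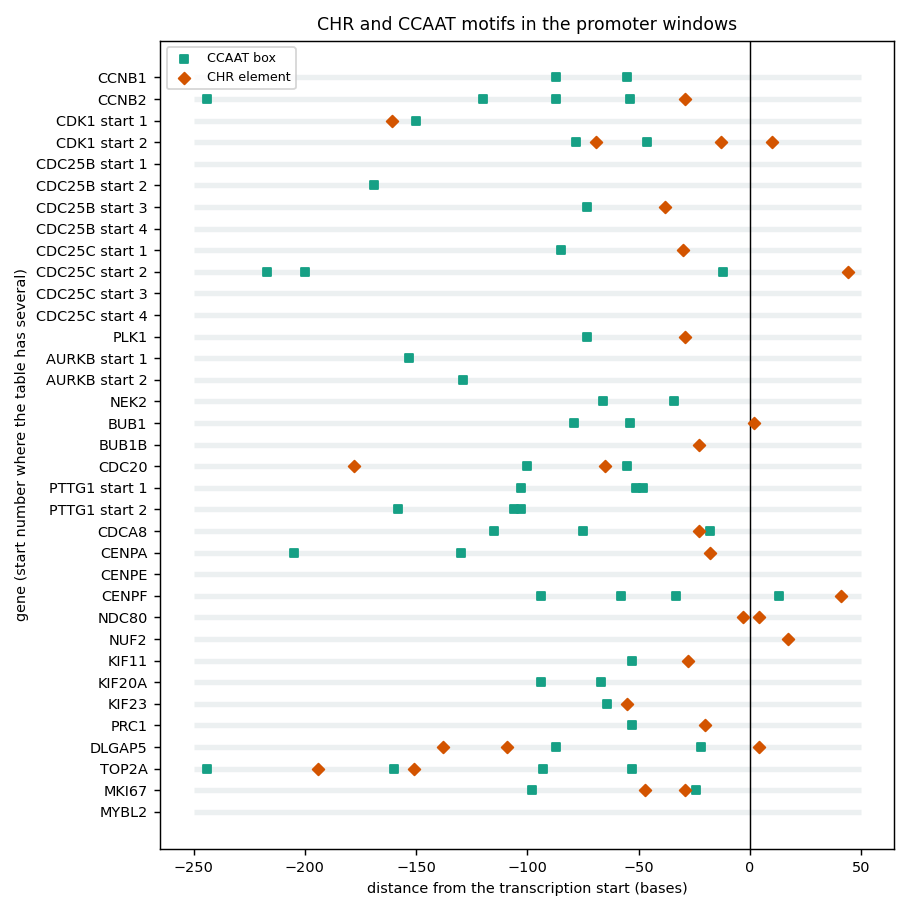
Positions of CHR and CCAAT letters, in bases from the transcript start, in the RefSeq promoter windows of 26 members, 1 line per transcript start. Matches of both kinds stand in the windows of 16 members.

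The arrays did not all behave alike, and most of the mitotic genes lay low on the same few. On the replicate 1 array of BT-549 in everolimus, 30 of 32 members had the lowest signal of the line's 6 arrays, against 20.0% of all genes. On the replicate 1 array of MDA-MB-231 in everolimus, 24 of 32 had the lowest, against 23.4% of all genes. No other array held the lowest value of more than 2 members. The replicate 1 DMSO array of each line was low too, with 28 of 32 members below the line's DMSO mean. The median member there lay at -0.16 (log2) in MDA-MB-231 and at -0.22 in BT-549. Relative to the DMSO mean of its line, the median member lay at -1.19, 0.18 and 0.29 (log2) on the 3 BT-549 everolimus arrays and at -0.61, 0.07 and -0.05 on the 3 MDA-MB-231 everolimus arrays, while the median of all genes stayed between -0.03 and 0.05. The spread of all genes about their group mean was also widest on the BT-549 everolimus array 1 (SD 0.393, against 0.0822 to 0.271 on the other 11 arrays). The members' median SE of 0.403 in each line's comparison compared with 0.155 for all genes. The part of these arrays in each result was not tested, and results are given with and without them. Of the mesenchymal markers, VIM and CD44 were above the floor on 12 of 12 arrays and SPARC on the 6 BT-549 arrays, where it averaged 9.59 in everolimus and 11.59 in DMSO. Of the receptor genes, ESR1 was above the floor on 0 arrays, PGR on 1 and ERBB2 on 12, and of the luminal markers GATA3 was above it on 8, FOXA1 on 4 and KRT19 on 7. Of the leukocyte markers, PTPRC and CD3E were above the floor on 0 arrays but CD14 on 11, with means of 7.32 in MDA-MB-231 everolimus and 7.56 in MDA-MB-231 DMSO and of 6.94 in BT-549 everolimus and 6.81 in BT-549 DMSO. Of the endothelial markers, CDH5 was above it on 0 arrays, PECAM1 on 2 and VWF on 3, and VWF averaged 7.65 in BT-549 everolimus and 6.54 in BT-549 DMSO.

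**Figure D2:**
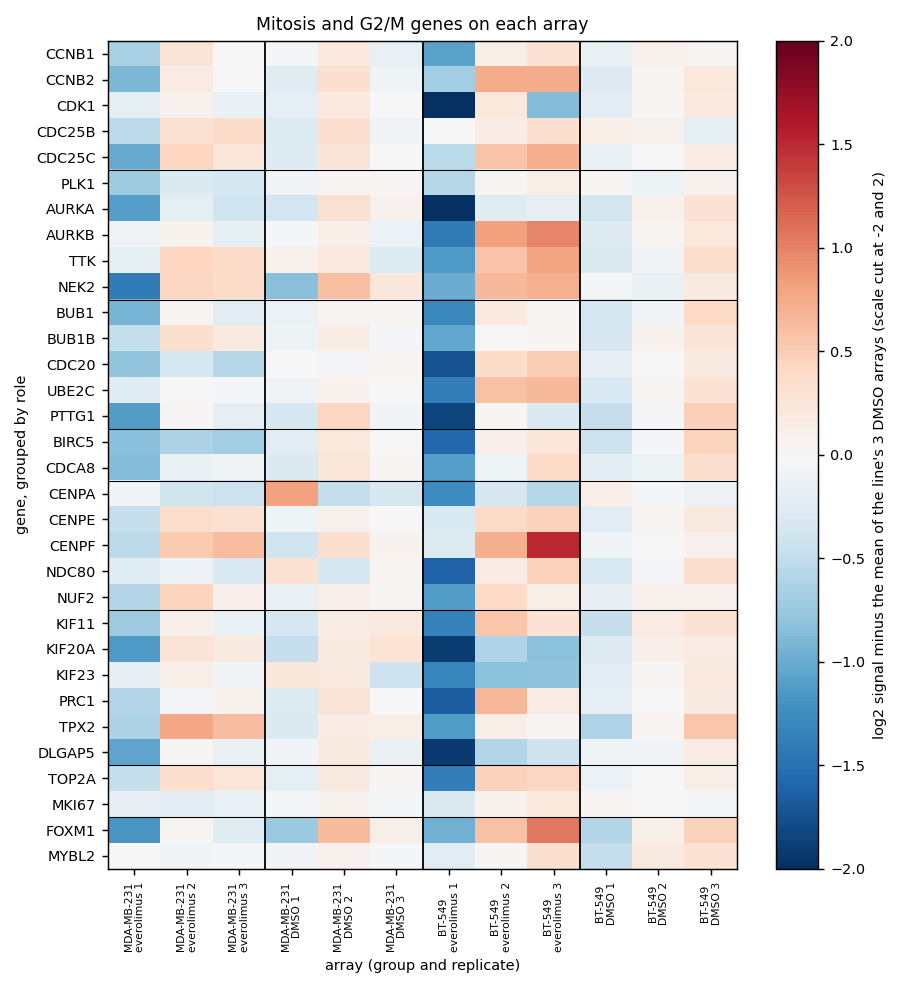
Log2 signal of each of the 32 members on each of the 12 arrays minus the DMSO mean of the same line, with colours clipped at 2 in either direction. The BT-549 everolimus replicate 1 column lies below its DMSO mean for all 32 members.

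A difference below is the mean log2 signal in everolimus minus that in DMSO, and a gene passed, or was called, at an adjusted p under 0.05 over all genes. In MDA-MB-231, 0 of 32 members passed limma's test, and 1, PLK1, had an unadjusted p under 0.05, as did 10.6% of all genes. Over all genes 18 passed, 0.153% of those tested, or 79 with the replicate number as a block, a fit that also called 0 members. The members' median log2 difference (everolimus minus DMSO) was -0.17, against -0.01 over all genes. Below 0 were 25 of 32 members and 51.8% of all genes. All 3 everolimus arrays lay below all 3 DMSO arrays for 4 members, PLK1, CDC20, BIRC5 and MKI67, a pattern that 9.94% of all genes had, and the opposite held for 0 members and 8.63% of all genes. Without the 4 replicate 1 arrays, AURKA (-0.49, adjusted p = 0.0477), CDC20 (-0.47, 0.0438) and BIRC5 (-0.77, 0.0218) passed as lower in everolimus, the median was -0.06 and 6.85% of all genes passed.

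In BT-549, KIF23 fell and was the 1 member of 32 to pass, where 16.8% of all genes passed. In all, 4 members had an unadjusted p under 0.05, namely KIF23, KIF20A, DLGAP5 and CENPA, where 31.6% of all genes did. For these 4 every everolimus array lay below every DMSO array, as for 14.1% of all genes. No member had all 3 everolimus arrays above the DMSO arrays, against 18.5% of all genes. The median member difference was -0.21, against 0.04 over all genes, with 22 of 32 members and 44.8% of all genes below 0. Without the BT-549 everolimus array 1 the balance of directions turned. The members' median became 0.23, against 0.04 over all genes, and 7 of 32 members were below 0. This fit kept BT-549 DMSO array 1, on which 28 of 32 members lay below the DMSO mean. AURKB (0.90, adjusted p = 0.00182), UBE2C (0.62, 0.0156), CENPF (1.11, 0.036) and CDC20 (0.43, 0.0435) passed as higher in everolimus. KIF23 (-0.82, 0.0118) still passed as lower, with 28% of all genes passing. That array was singled out because the members lay low on it. Leaving it out had to raise most of them, so these p-values are not free of that choice. No other fit that left out 1 array called a member higher in BT-549. Without all 4 replicate 1 arrays the shift was smaller, with a members' median of 0.16, against 0.03 over all genes, and 12 of 32 members below 0. There 10 members passed as higher (CCNB2, CDC25C, AURKB, TTK, NEK2, CDC20, UBE2C, CENPE, CENPF and TOP2A). As lower, 5 passed (AURKA, CENPA, KIF20A, KIF23 and DLGAP5), with 38.2% of all genes passing. With the replicate block AURKA, KIF20A, KIF23 and DLGAP5 passed, all lower, where 27.9% of all genes passed.

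**Figure D3:**
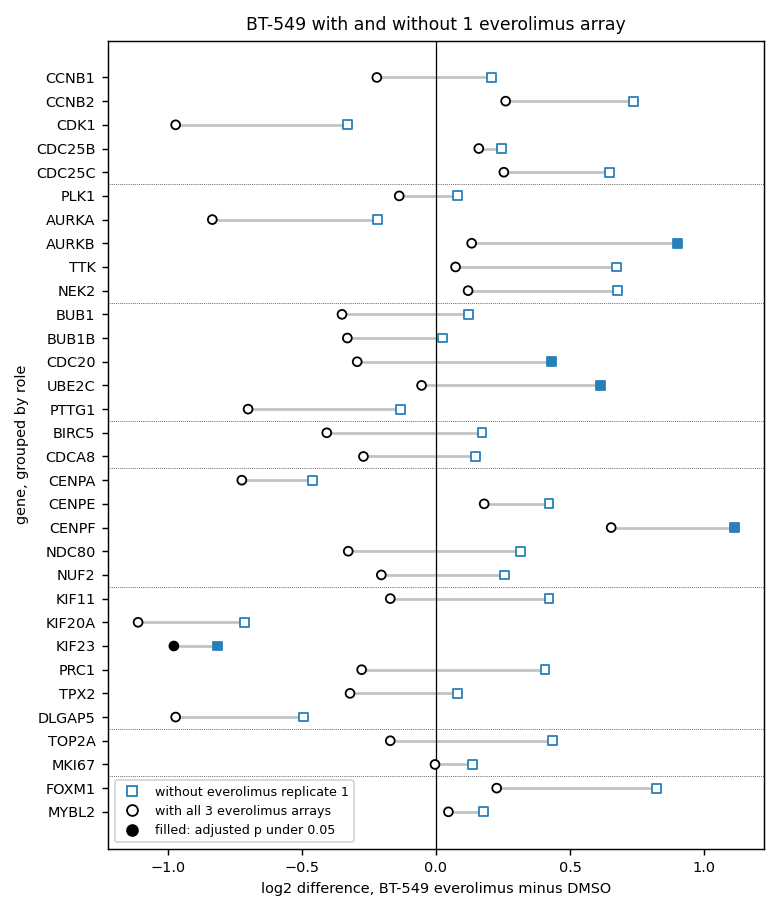
Log2 difference of everolimus minus DMSO in BT-549 for each member, from all arrays and without the everolimus replicate 1 array. The members' median is -0.21 with that array and 0.23 without it, and KIF23 stays on the negative side in both.

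The effects of everolimus were compared between the lines as BT-549 minus MDA-MB-231. Of the members 0 passed limma's test, where 0.638% of all genes passed. An unadjusted p under 0.05 was held by 1 member and by 15.7% of all genes. KIF23 had the lowest adjusted p (-0.94, 95% interval -1.55 to -0.33, adjusted p = 0.143). With the replicate block, KIF23 passed (adjusted p = 0.0386), where 6.01% of all genes passed. Without the 4 replicate 1 arrays 9 members passed, where 19.9% of all genes passed. Without the BT-549 everolimus array 1, AURKB (0.96, adjusted p = 0.0153) and CDC20 (1.00, 0.0107) passed. In that fit 780 of all 11764 genes tested passed as higher and 439 as lower. The array was singled out for its low member values, so the calls of AURKB and CDC20 are not free of that choice.

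**Figure D4:**
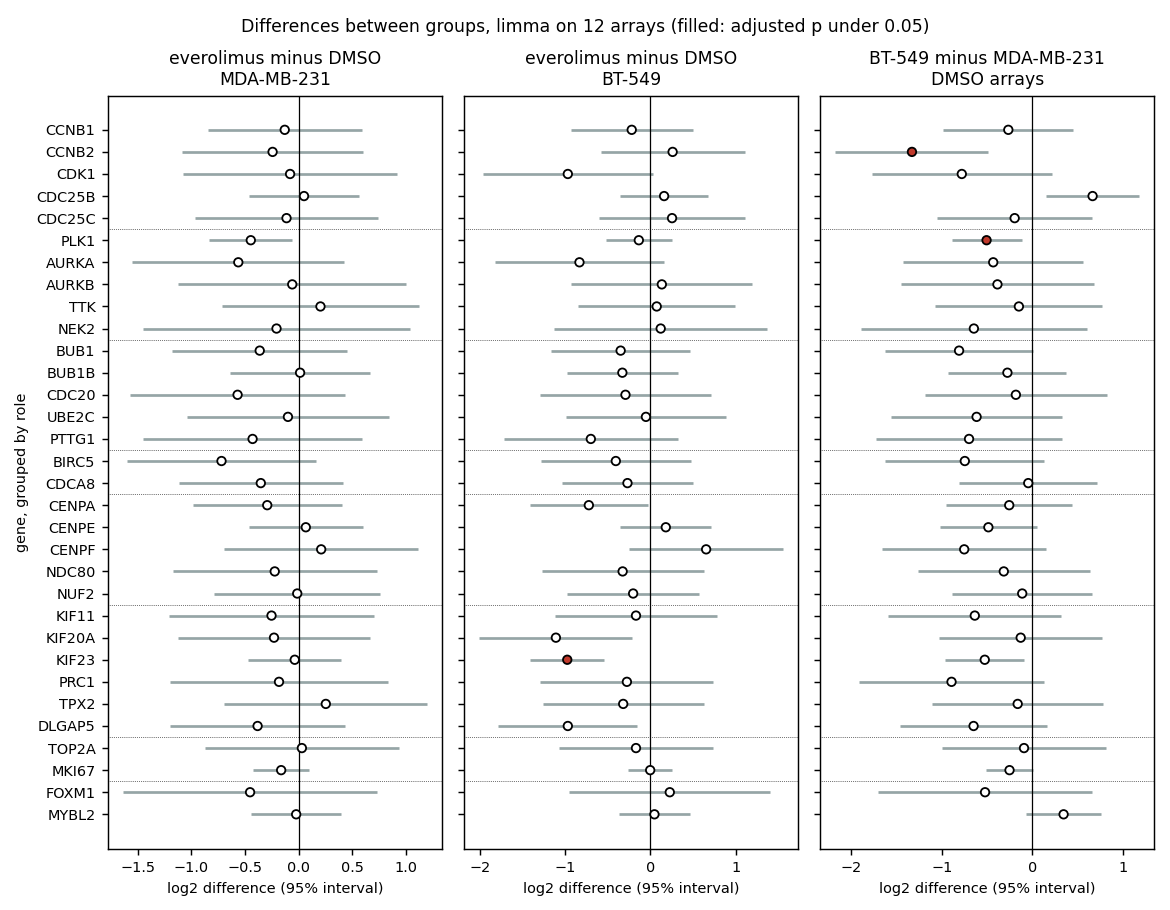
Log2 difference with its 95% interval for the 32 members, grouped by role. A panel for each line shows everolimus minus DMSO, and a further panel shows BT-549 minus MDA-MB-231 in DMSO. Filled points had an adjusted p under 0.05. In BT-549 the intervals of KIF23, KIF20A, DLGAP5 and CENPA lie below 0, and in MDA-MB-231 that of PLK1 does.

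Among motors and microtubule proteins of the spindle and midzone, all 6 members had negative differences in BT-549 and 5 in MDA-MB-231, where 44.8% and 51.8% of all genes in that order were below 0. Without BT-549 everolimus array 1, KIF23, KIF20A and DLGAP5 were below 0 in BT-549 and KIF11 (0.42), PRC1 (0.41) and TPX2 (0.08) above it. KIF23 is the kinesin of the centralspindlin complex, which bundles midzone microtubules for cytokinesis. Its log2 signals were 7.07, 7.55 and 7.56 on the BT-549 everolimus arrays, against 8.15, 8.39 and 8.57 on the DMSO arrays. Every treated array lay below every DMSO array, including the 2 everolimus arrays on which most members were not low. KIF23 averaged 7.39 ± 0.28 in BT-549 everolimus and 8.37 ± 0.21 in BT-549 DMSO (SD, n = 3 each), 1.97-fold lower in everolimus (log2 difference -0.98, SE 0.20, limma adjusted p = 0.00929). It passed in each of the 12 fits that left out 1 array, with a limma adjusted p of at most 0.0399. A dimmer KIF23 probe also had all everolimus arrays below DMSO but did not pass (-0.19, adjusted p = 0.234). In MDA-MB-231, KIF23 had 8.73, 9.01 and 8.84 in everolimus, against 9.12, 9.09 and 8.48 in DMSO, and the groups overlapped (-0.04, adjusted p = 0.992).

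KIF20A, a midzone kinesin that brings PLK1 to the central spindle, had 8.10, 9.40 and 9.18 on the BT-549 everolimus arrays, against 9.75, 10.10 and 10.16 on the DMSO arrays. The groups did not overlap, yet the difference of -1.11 did not pass (adjusted p = 0.0868). It passed with the replicate block (adjusted p = 0.00601) and without MDA-MB-231 everolimus array 1 (0.0376), and it was -0.71 without BT-549 everolimus array 1 (0.191). DLGAP5, a spindle protein that stabilises kinetochore microtubules, had 7.65, 8.99 and 9.16 in BT-549 everolimus and 9.48, 9.50 and 9.73 in BT-549 DMSO. Again the groups stood apart (-0.97, adjusted p = 0.0983), and its other probe gave -1.03. DLGAP5 passed with the replicate block (adjusted p = 0.0343) and was -0.50 without BT-549 everolimus array 1 (0.197). In MDA-MB-231 the everolimus arrays of both genes overlapped DMSO (KIF20A -0.23, DLGAP5 -0.38), and the other DLGAP5 probe gave 0.03 there. TPX2, which activates AURKA on the spindle, differed by -0.32 in BT-549 and 0.25 in MDA-MB-231. KIF11, the kinesin that pushes spindle poles apart, differed by -0.17 in BT-549 and -0.25 in MDA-MB-231. PRC1, which crosslinks midzone microtubules, differed by -0.28 in BT-549 and -0.18 in MDA-MB-231, and TPX2, KIF11 and PRC1 passed in neither line.

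No brightest probe of CDK1, its B cyclins or the CDC25 phosphatases passed in either line. CCNB1 had 9.74, 10.65 and 10.40 in MDA-MB-231 everolimus, against 10.35, 10.59 and 10.24 in MDA-MB-231 DMSO. In BT-549 it had 9.05, 10.25 and 10.42 in everolimus, against 9.99, 10.21 and 10.18 in DMSO. In both lines only everolimus array 1 lay below all DMSO arrays, so the groups overlapped (-0.22 in BT-549 and -0.13 in MDA-MB-231). CDK1, the kinase of mitotic entry, had 7.83, 10.29 and 9.21 in BT-549 everolimus and 9.86, 10.11 and 10.27 in BT-549 DMSO. Everolimus array 2 was the highest of the 6 and arrays 1 and 3 the lowest (-0.97, adjusted p = 0.168). The difference was -0.33 without everolimus array 1 (adjusted p = 0.395) and -1.56 without array 2, where it passed (adjusted p = 0.0173). A second CDK1 probe had 6.98, 8.40 and 7.57 in BT-549 everolimus, all below its 8.55, 8.70 and 8.65 in DMSO. Tested among all probes, it passed (-0.98, adjusted p = 0.032). In MDA-MB-231 CDK1 had 10.67, 10.94 and 10.73 in everolimus, against 10.67, 11.06 and 10.85 in DMSO, with overlapping groups (-0.08).

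CCNB2, the other B cyclin here, had 8.87, 10.30 and 10.30 on the BT-549 everolimus arrays, against 9.30, 9.62 and 9.77 on the DMSO arrays. Everolimus arrays 2 and 3 were the highest of the line and array 1 the lowest. The difference was 0.26 over all arrays and 0.74 without that array (adjusted p = 0.0832), and it was -0.24 in MDA-MB-231. CDC25B, a phosphatase that starts CDK1 activation, differed by 0.16 in BT-549 and 0.05 in MDA-MB-231. CDC25C, which acts on CDK1 at mitotic entry, had probes that disagreed in BT-549. The brightest gave 0.25 and did not pass, while another had 7.16, 7.15 and 7.17 in everolimus, against 7.72, 7.79 and 7.55 in DMSO, and passed among all probes as lower (-0.53, adjusted p = 0.0191).

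Of the mitotic kinases, PLK1 had the lowest adjusted p in MDA-MB-231 in the fit to all arrays, while without the 4 replicate 1 arrays AURKA passed and PLK1 did not. It had 7.43, 7.85 and 7.79 on the everolimus arrays, against 8.06, 8.19 and 8.16 on the DMSO arrays, with no overlap. The log2 difference was -0.45 (SE 0.18, 95% interval -0.83 to -0.06), but the adjusted p over all genes was 0.370. In BT-549 PLK1 had 7.06, 7.66 and 7.76 in everolimus, against 7.66, 7.53 and 7.70 in DMSO, which overlap (-0.14). AURKA, the spindle pole kinase, had 8.99, 10.81 and 10.86 in BT-549 everolimus and 10.68, 11.14 and 11.34 in BT-549 DMSO. Of the treated arrays, 2 lay inside the DMSO range and 1 far below it (-0.83, adjusted p = 0.232, and 0.0317 with the replicate block). In MDA-MB-231 AURKA had 10.38, 11.30 and 11.09 in everolimus, against 11.10, 11.79 and 11.57 in DMSO (-0.56, adjusted p = 0.766).

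AURKB, the kinase of the chromosomal passenger complex, had 7.98, 10.20 and 10.36 in BT-549 everolimus, against 9.12, 9.43 and 9.59 in BT-549 DMSO. In everolimus 2 arrays lay above all DMSO arrays and the other below all of them, so its mean difference over all arrays was 0.13. Of all 32 members it had the widest spread within a group, 9.51 ± 1.33 in BT-549 everolimus, against 9.38 ± 0.24 in BT-549 DMSO (SD, n = 3 each). In MDA-MB-231 it stayed between 9.59 and 9.90, with 9.70, 9.83 and 9.59 in everolimus and 9.75, 9.90 and 9.65 in DMSO (-0.06). TTK, the checkpoint kinase also called MPS1, differed by 0.07 in BT-549 and 0.20 in MDA-MB-231. NEK2, a centrosome kinase, differed by 0.12 in BT-549 and -0.21 in MDA-MB-231, and its second, dimmer probe was lower on every everolimus array of BT-549 (-0.46).

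The checkpoint and anaphase genes included CDC20, the activator of the anaphase-promoting complex, whose everolimus effects differed between the lines once BT-549 everolimus array 1 was left out. In MDA-MB-231 it had 11.14, 11.57 and 11.35 in everolimus, all below the 11.91, 11.89 and 11.97 in DMSO (-0.57, adjusted p = 0.767). In BT-549 it had 10.00, 12.11 and 12.23 in everolimus, against 11.57, 11.73 and 11.92 in DMSO. There everolimus array 1 was the lowest of the 6 and the other two the highest (-0.29 over all arrays). UBE2C, a ubiquitin-conjugating enzyme of that complex, showed the same order in BT-549, with 10.37, 12.34 and 12.41 in everolimus and 11.45, 11.78 and 12.05 in DMSO (-0.05), and differed by -0.10 in MDA-MB-231. BUB1 and BUB1B, kinetochore checkpoint proteins, differed in that order by -0.35 and -0.33 in BT-549, against -0.36 and 0.01 in MDA-MB-231. PTTG1, the securin that holds separase inactive, differed by -0.70 in BT-549 (adjusted p = 0.339) and by -0.43 in MDA-MB-231. A second PTTG1 probe passed among all probes in BT-549 (-1.21, adjusted p = 0.0287), but PTTG1 has near-identical copies in the genome, so its signal is uncertain.

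BIRC5 and CDCA8 encode survivin and borealin, which like AURKB belong to the chromosomal passenger complex. BIRC5 had 9.37, 9.59 and 9.51 in MDA-MB-231 everolimus and 10.00, 10.42 and 10.21 in MDA-MB-231 DMSO. The groups did not overlap, and of all members BIRC5 had the lowest difference in this line (-0.72, 1.65-fold lower, adjusted p = 0.578). A second, dimmer BIRC5 probe also had all everolimus arrays below DMSO there and did not pass among all probes (-0.56, adjusted p = 0.0954). In BT-549 BIRC5 had 7.90, 9.56 and 9.71 in everolimus, against 9.05, 9.43 and 9.91 in DMSO (-0.41), with 2 arrays inside the DMSO range. CDCA8 differed by -0.27 in BT-549 and -0.35 in MDA-MB-231.

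CENPA, the histone H3 variant that marks centromeres, had 7.33, 8.24 and 8.01 in BT-549 everolimus, against 8.72, 8.56 and 8.47 in BT-549 DMSO. All treated arrays lay below DMSO (-0.72, adjusted p = 0.145, and 0.0429 without MDA-MB-231 DMSO array 1), and a second probe kept that order. In MDA-MB-231 the CENPA groups overlapped (-0.29). CENPF, a large outer kinetochore protein, had 8.31, 9.30 and 10.08 in BT-549 everolimus and 8.50, 8.57 and 8.66 in BT-549 DMSO. In everolimus 2 arrays were above DMSO and 1 below, and the mean difference of 0.65 was the highest of all members in this line (adjusted p = 0.308). It was 0.21 in MDA-MB-231. CENPE, the kinetochore motor, differed by 0.18 in BT-549 and 0.07 in MDA-MB-231. NDC80 and NUF2, partners in the complex that grips microtubules, differed in that order by -0.33 and -0.20 in BT-549, against -0.22 and -0.01 in MDA-MB-231. A second, dim NUF2 probe had 6.45, 6.64 and 6.69 in BT-549 everolimus, all below its 7.09, 7.09 and 6.85 in BT-549 DMSO, and passed among all probes (-0.42, adjusted p = 0.0378).

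TOP2A, the topoisomerase that untangles sister chromatids, had 10.70, 11.51 and 11.42 in MDA-MB-231 everolimus, against 10.98, 11.36 and 11.20 in MDA-MB-231 DMSO. In BT-549 it had 9.71, 11.54 and 11.50 in everolimus and 10.97, 11.09 and 11.20 in DMSO. In both lines array 1 was the lowest everolimus array and the other 2 lay above all DMSO arrays (-0.17 in BT-549 and 0.03 in MDA-MB-231). MKI67, the gene of the Ki-67 proliferation antigen, was read by a probe close to the floor of 6.77, which compresses its differences. It had 6.86, 6.81 and 6.89 in MDA-MB-231 everolimus, against 6.97, 7.09 and 6.99 in MDA-MB-231 DMSO, without overlap (-0.16, adjusted p = 0.732). In BT-549 it had 6.48, 6.83 and 6.97 in everolimus and 6.79, 6.77 and 6.73 in DMSO, which overlap.

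FOXM1, a forkhead factor that activates G2/M genes, had 8.05, 9.28 and 8.97 in MDA-MB-231 everolimus, against 8.47, 9.85 and 9.34 in MDA-MB-231 DMSO. Within each group array 1 was the lowest, and the groups overlapped (-0.45). In BT-549 it had 7.73, 9.29 and 9.75 in everolimus and 8.11, 8.82 and 9.16 in DMSO, with 2 everolimus arrays above DMSO and 1 below (0.23). MYBL2, or B-Myb, the MuvB partner, had 6.78, 6.73 and 6.76 in MDA-MB-231 everolimus and 6.72, 6.86 and 6.76 in MDA-MB-231 DMSO. These lie at the floor and have no order. In BT-549 it had 6.91, 7.15 and 7.45 in everolimus, against 6.65, 7.31 and 7.41 in DMSO, which overlap (0.05).

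**Figure D5:**
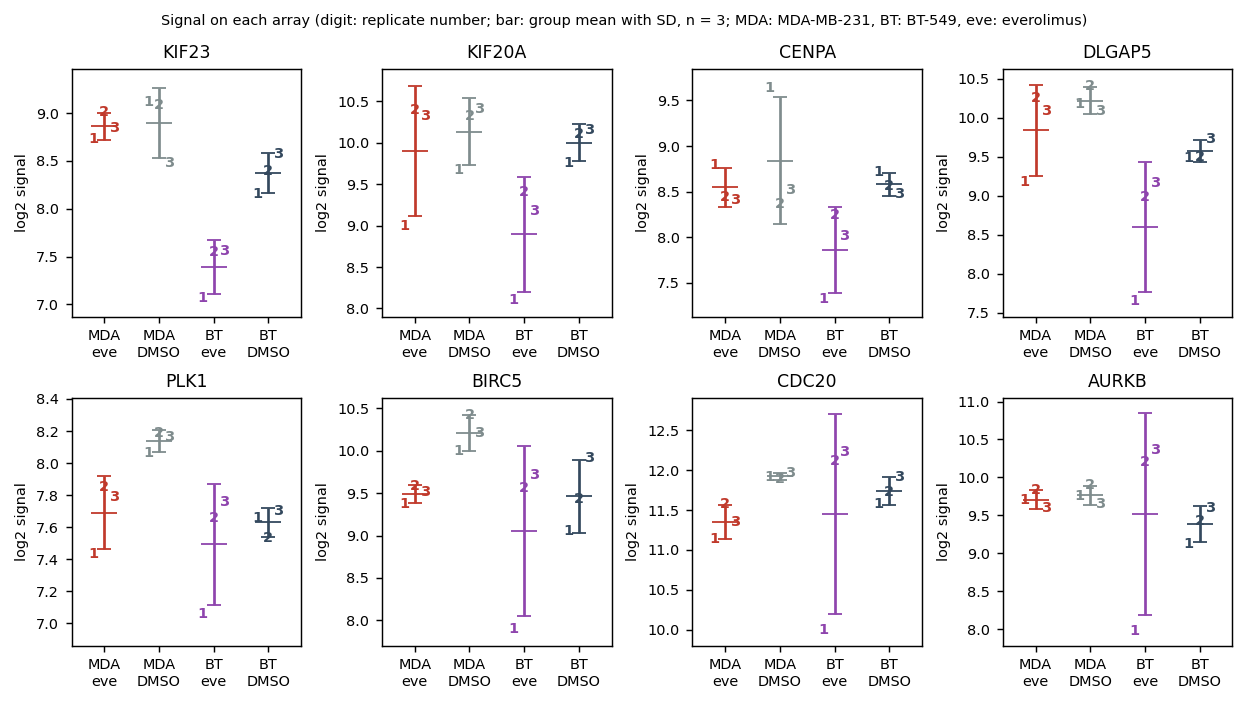
Log2 signal of 8 members on each array, with digits for the replicate arrays, a horizontal bar for the group mean and error bars of 1 SD (n = 3). KIF23 is lower on all BT-549 everolimus arrays than on any DMSO array, while AURKB and CDC20 have 1 array far below the other two in BT-549 everolimus.

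Between the lines in DMSO, most members had a lower mean in BT-549 than in MDA-MB-231. These DMSO arrays are those used above, so the values are not independent of the everolimus comparisons. In all, 2 members passed, both lower in BT-549, against 30.4% of all genes that passed. CCNB2 had 9.30, 9.62 and 9.77 in BT-549 DMSO and 10.65, 11.23 and 10.80 in MDA-MB-231 DMSO, without overlap (-1.33, SE 0.38, limma adjusted p = 0.0225). PLK1 had 7.66, 7.53 and 7.70 in BT-549 DMSO, against 8.06, 8.19 and 8.16 in MDA-MB-231 DMSO, also without overlap (-0.51, SE 0.18, adjusted p = 0.0489). CCNB2 no longer passed without MDA-MB-231 DMSO array 2 or 3 or BT-549 DMSO array 1 or 2 (adjusted p 0.0528 to 0.0826), and PLK1 passed in 3 of the 12 fits that left out 1 array. Tested among all probes, CCNB2 passed (adjusted p = 0.0237) and PLK1 did not (0.0502). A second, dimmer BIRC5 probe passed there as lower in BT-549 (-0.58, adjusted p = 0.00433), while the brightest did not (-0.75, 0.188). The members' median difference was -0.41, against -0.02 over all genes, and 30 of 32 members and 51.9% of all genes were below 0. For 13 members every BT-549 array lay below every MDA-MB-231 array, as for 25% of all genes. CDC25B alone had the opposite order, with 11.17, 11.12 and 10.85 in BT-549 DMSO and 10.11, 10.72 and 10.32 in MDA-MB-231 DMSO (0.66, adjusted p = 0.0523). The share of all genes with that order is not given. MYBL2 was the other member above 0 (0.34, adjusted p = 0.198). With the replicate block 11 members passed, 2 higher (CDC25B and MYBL2) and 9 lower, where 41.3% of all genes passed. Without the 4 replicate 1 arrays the same 2 were higher and 16 were lower, where 45.5% of all genes passed.

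Other genes of the same processes were taken from lists drawn up by function, also with earlier results of these data known. In MDA-MB-231 limma called 0 members of all 7 lists. An unadjusted p under 0.05 was held there by 10.6% of all genes. In the lists it was held by 1 anaphase-promoting complex gene, 2 cohesin and condensin genes, 1 kinetochore gene, 0 spindle genes, 3 G2/M entry genes, 1 DREAM gene and 1 S phase gene. Over all genes 16.8% were called in BT-549, the share beside which the following counts stand. There the anaphase-promoting complex list had 1 higher and 2 lower of 15 tested (median -0.09). CDC16 (0.64, adjusted p = 0.0185), a core subunit, was higher, and the small subunits CDC26 (-0.83, 0.00156) and ANAPC15 (-0.68, 0.0322) were lower. Of 17 cohesin and condensin genes, NCAPG2 (-1.20, 0.00392), of condensin II, and SGO1 (-0.73, 0.034), the shugoshin that guards centromeric cohesion, were lower, and 0 were higher (median -0.10). Of 33 centromere and kinetochore genes, PMF1 (-0.53, 0.0179) and ZWINT (-0.77, 0.0377) were lower and 0 were higher (median -0.11).

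Of 22 spindle and cytokinesis genes, NUMA1 (1.05, 0.00263), which anchors microtubules at the poles, was higher in BT-549 and KIF15 (-0.52, 0.0221), a spindle kinesin, was lower (median 0.04). NUMA1 had 8.93, 8.84 and 9.08 in everolimus, against 7.77, 7.96 and 7.97 in DMSO, so array 1 did not stand apart for it. CDC26 had 9.44, 9.05 and 9.27 in everolimus and 10.12, 10.08 and 10.06 in DMSO, and NCAPG2 had 7.44, 7.70 and 7.62 in everolimus and 8.53, 8.76 and 9.08 in DMSO. Of 15 regulators of G2/M entry, CKS2 (-0.95, 0.023), a CDK-binding subunit, was lower and 0 were higher (median -0.25). Of 11 DREAM genes, E2F4 (-0.45, 0.0209), a DNA-binding subunit, was lower and 0 were higher (median -0.03). In the S phase list, 1 of 17 tested genes was higher and 2 were lower (median -0.01). CDT1 (1.11, 0.0406), which licenses replication origins, was higher though its groups overlapped, and RRM2 (-1.27, 0.0107), a subunit of ribonucleotide reductase, and MCM6 (-0.61, 0.0407), of the replicative helicase, were lower. Among the 3 BT-549 everolimus arrays the S phase median relative to DMSO was -0.61, 0.28 and 0.37, so array 1 was low for this list too. CDC26, NCAPG2, NUMA1 and RRM2 passed in all 12 fits that left out 1 array, and the other 10 genes called in these lists passed in 4 to 9 of them. Without the 4 replicate 1 arrays, the spindle list had 11 higher and 2 lower in BT-549 and the centromere list 9 higher and 5 lower, while the counts were 2 and 6 for the anaphase-promoting complex, 4 and 3 for cohesin and condensin, 3 and 3 for G2/M entry, 3 and 3 for DREAM and 6 and 2 for S phase, where 38.2% of all genes passed. In the same fit MDA-MB-231 had 1 higher and 3 lower in the S phase list, 1 higher in the DREAM list, 2 lower in the centromere list, 2 lower in the G2/M entry list and 1 lower in the anaphase-promoting complex list, where 6.85% of all genes passed. CDC27, UBE2S, SMC1A, PDS5A, KIF18B and CCNE2 did not pass the floor and were not tested.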

How the data were processed

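Total RNA was isolated with a mirVana kit, amplified with TotalPrep and labelled with streptavidin-Cy3, per the labels' protocols. The deposited table holds log2 signals of 47230 probes, which the authors had quantile normalized, as read from the values: all 12 columns have the same quantiles. The log base is inferred, since 2 to the highest value is 24154, within a 16-bit scanner's range. The sources used here do not name the software, the background correction or any filter. The 12 columns of another table match no sample label and were not used.

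Probes with 1 gene symbol in the platform annotation (30113) were kept where at least 3 arrays lay above a floor of 6.77 (background peak 6.55 plus 3 SDs), which leaves 11764 genes. For a gene with several such probes the brightest was used. No array depth exists; 3 arrays a group limit the precision. Group means were fitted to all 12 arrays with limma 3.58.1 (R 4.3.3), 2-sided, adjusted by the Benjamini-Hochberg method over all genes, and called at an adjusted p under 0.05. The same 12 arrays showed 0 identical pairs, and r within groups was 0.927 to 0.995. Deviations from the group mean on same-numbered arrays of MDA-MB-231 correlated (r = 0.735, 0.544 and 0.418). Everolimus array 3 correlated more with DMSO array 2 (0.546), however. Deviations sum to 0 within a group, and here they mostly set array 1 apart from arrays 2 and 3. They therefore cannot settle whether the numbers pair. Alternatives changed the floor, scaling, probe choice, prior, block and arrays. The fit was also run on simulated data with independent noise for each gene and array. That cannot check it where many genes move together on 1 array, as the members did here. Figures and motif searches used Python 3.11.15, matplotlib 3.10.9 and pandas 2.3.3.

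The members and lists were chosen with earlier results of these data known. The rule named all 32 members and gave every array's value for called members and for CCNB1, CDK1, PLK1, AURKB, FOXM1, MYBL2, TOP2A and MKI67. Of each other list it named the genes called in either line. The other members shown by array, and the further genes with values by array, were chosen after their values were seen.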

Additional observations from a re-analysis of the deposited data

How the results depend on the processing

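Of the members, KIF23 in BT-549 passed limma's test under all 20 alternatives, 12 of which left out 1 array, with log2 differences from -1.09 to -0.58. The counts of calls moved more. Over all genes in MDA-MB-231 the count was 30 without a floor, 6 with a trended robust prior, 0 with the line fitted on its own 6 arrays (1246 had an unadjusted p under 0.05 in the fit to all arrays), 79 with the replicate block, 806 without the 4 replicate 1 arrays and 0 to 125 with 1 array left out. Over all genes in BT-549 it was 1165 on the line's own arrays, 3282 with the replicate block, 4498 without the replicate 1 arrays and 795 to 3289 with 1 array left out. For the difference between lines it was 20 with a stricter floor, 16 with the trended prior, 707 with the block, 2345 without the replicate 1 arrays and 0 to 1219 with 1 array left out, and the difference and the baseline have no value from single-line fits. Members called without the replicate 1 arrays numbered 3 in MDA-MB-231, 15 in BT-549, 9 for the difference and 18 at baseline, where 5350 of all genes passed. With the replicate block there were 4 in BT-549, 1 for the difference and 11 at baseline (4858 of all genes), and in MDA-MB-231 the block changed no member's call. With 1 array left out there were 1 to 5 in BT-549, 0 to 2 for the difference and 0 to 11 at baseline (2546 to 4400 of all genes), and without a floor 1 at baseline. With every probe tested on its own, an alternative chosen after seeing the data, 5 members passed in BT-549. There 14 members had several probes and so more than 1 chance to pass. The share over all probes is not given, so this count cannot be set against those above.

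Many signs turned. Without the replicate 1 arrays this happened in MDA-MB-231 for CCNB1 0.11, CDC25C 0.21, NUF2 0.21 and KIF23 0.14, and in BT-549 for CCNB1 0.14, PLK1 0.095, CDC20 0.35, UBE2C 0.46, CDCA8 0.04, NDC80 0.17, NUF2 0.18, KIF11 0.20, PRC1 0.32, TOP2A 0.38, MKI67 0.15 and MYBL2 -0.06. With the mean of a gene's probes it turned for CDK1 0.013 and CDC25C 0.083 in MDA-MB-231 and for CDC25C -0.13 and NEK2 -0.17 in BT-549, and with equal medians for MYBL2 -0.023 in BT-549. With 1 array left out, differences that changed sign ranged in MDA-MB-231 over CCNB1 -0.32 to 0.13, CCNB2 -0.45 to 0.082, CDK1 -0.17 to 0.02, CDC25B -0.11 to 0.34, CDC25C -0.39 to 0.34, AURKB -0.12 to 0.0067, NEK2 -0.62 to 0.39, BUB1B -0.14 to 0.26, CENPA -0.53 to 0.11, CENPE -0.075 to 0.33, NUF2 -0.24 to 0.28, KIF20A -0.47 to 0.22, KIF23 -0.24 to 0.075, PRC1 -0.32 to 0.018, TPX2 -0.0033 to 0.69, TOP2A -0.12 to 0.28 and MYBL2 -0.053 to 0.017, and in BT-549 over CCNB1 -0.48 to 0.21, PLK1 -0.27 to 0.08, AURKB -0.29 to 0.90, TTK -0.28 to 0.67, NEK2 -0.17 to 0.68, BUB1 -0.62 to 0.12, BUB1B -0.51 to 0.023, CDC20 -0.69 to 0.43, UBE2C -0.41 to 0.61, BIRC5 -0.73 to 0.17, CDCA8 -0.60 to 0.15, NDC80 -0.72 to 0.32, NUF2 -0.51 to 0.26, KIF11 -0.53 to 0.42, PRC1 -0.74 to 0.41, TPX2 -0.62 to 0.08, TOP2A -0.48 to 0.43, MKI67 -0.11 to 0.14, FOXM1 -0.19 to 0.82 and MYBL2 -0.19 to 0.19. The cause was not tested. With 3 arrays a group the members' median SE was 0.403, and MKI67 and MYBL2 lay so near background that their differences are compressed. In BT-549 the same-numbered arrays had r = 0.50, 0.0787 and 0.411, and everolimus array 2 correlated most with DMSO array 3 (0.465). Pairing by number is settled in neither line, so the block is only an alternative.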
